A study of Homo sapiens with 6 samples.

Results

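The mitotic kinases, kinesins and kinetochore genes described here are 46 genes that carry a cell from the end of G2 through mitosis, and they were followed through the knockdown of CXXC5 in 3 human leukaemia cell lines. They were found by gene symbol in the array platform's annotation. Of the 46, 45 had an array feature (a transcript cluster, summarised from many probes) of their own, out of 22465 genes with such a feature. BUB1B shares its feature with PAK6 and is not reported. All 45 were at log2 5 or more on every array, with values between 5.55 and 11.24, and so belonged to the 15330 genes that passed the filter on low values.

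CXXC5 (RINF) encodes a zinc finger protein of the nucleus. Proliferating K562, UT7-5.3 and MV4-11 cells had been transduced with a lentiviral vector for an shRNA, called shRINF where it targets CXXC5 and shcontrol where it does not. Each line gave 1 array of each kind, 6 arrays in all, so that all arrays came from transduced cells and the cell line was the replicate. K562 derives from chronic myeloid leukaemia, UT7-5.3 from the cytokine-dependent UT-7 line and was grown with GM-CSF, and MV4-11 from an acute leukaemia with monocytic features. Values are log2 expression values, so a difference of 1 is a doubling. Levels of single genes were not compared with each other, but genes were grouped by level and marker values were summed and averaged.

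Entry into mitosis is driven by cyclin B bound to the kinase CDK1, which CDC25 phosphatases activate, with Polo-like and Aurora kinases acting beside it. Kinetochores then tie chromosomes to microtubules, the spindle checkpoint holds cells back until all are attached, kinesins move and shape the spindle, and the anaphase-promoting complex releases the sister chromatids. Most of these genes are transcribed late in the cell cycle, and in many of them 2 short promoter elements are known from the literature. One is the cell cycle genes homology region (CHR), bound by the MuvB complexes, and the other is the CCAAT box, bound by NF-Y. Both were looked for because they are the elements this gene family is known for.

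The promoters of 4 genes that hold both elements and of 1 that holds neither in this stretch are shown first, as the 250 bases before the RefSeq start (assembly GRCh38.p14). CCNB2 lies on the plus strand at chr15:59104896-59105145, CDK1 on the plus strand at chr10:60778081-60778330 and PLK1 on the plus strand at chr16:23678639-23678888. KIF18A lies on the minus strand at chr11:28108157-28108406 and CENPE on the minus strand at chr4:103198344-103198593. Each is written 5′ to 3′ in the direction of transcription, and capitals mark TTTGAA and CCAAT as read on this strand or on the other.
CCNB2: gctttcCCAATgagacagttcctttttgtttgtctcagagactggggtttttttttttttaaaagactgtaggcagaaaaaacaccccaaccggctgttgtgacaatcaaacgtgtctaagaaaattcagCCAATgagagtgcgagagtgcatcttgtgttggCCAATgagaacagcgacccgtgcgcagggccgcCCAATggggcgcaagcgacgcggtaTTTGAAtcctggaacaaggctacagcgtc
CDK1: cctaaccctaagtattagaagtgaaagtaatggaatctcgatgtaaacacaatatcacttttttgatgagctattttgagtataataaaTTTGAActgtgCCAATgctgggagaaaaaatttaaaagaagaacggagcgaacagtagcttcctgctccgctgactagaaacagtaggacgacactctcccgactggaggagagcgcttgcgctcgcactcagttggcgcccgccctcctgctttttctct
PLK1: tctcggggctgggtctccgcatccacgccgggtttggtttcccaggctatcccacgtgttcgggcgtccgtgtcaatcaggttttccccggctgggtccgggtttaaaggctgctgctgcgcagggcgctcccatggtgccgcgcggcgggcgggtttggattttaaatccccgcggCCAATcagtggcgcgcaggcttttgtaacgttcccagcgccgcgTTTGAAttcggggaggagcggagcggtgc
KIF18A: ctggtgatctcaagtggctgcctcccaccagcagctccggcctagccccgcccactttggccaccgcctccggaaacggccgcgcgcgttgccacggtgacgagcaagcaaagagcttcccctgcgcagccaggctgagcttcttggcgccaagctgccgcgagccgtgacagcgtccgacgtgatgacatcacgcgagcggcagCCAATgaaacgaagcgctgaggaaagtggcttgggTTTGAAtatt
CENPE: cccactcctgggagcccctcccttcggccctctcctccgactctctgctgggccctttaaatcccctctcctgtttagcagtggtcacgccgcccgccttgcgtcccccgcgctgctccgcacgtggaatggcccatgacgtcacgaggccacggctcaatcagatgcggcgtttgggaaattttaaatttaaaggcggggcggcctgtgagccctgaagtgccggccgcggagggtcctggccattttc

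CCNB2 held 4 CCAAT boxes and 1 TTTGAA, PLK1, KIF18A and CDK1 held 1 of each, and CENPE held none in this stretch. The TTTGAA began 29 bases before the start in CCNB2 and PLK1, 10 bases before it in KIF18A and 161 bases before it in CDK1. RefSeq promoters were matched for 38 of the 45 genes. Over 300 bases (250 before to 50 after the start), on both strands, TTTGAA or TTCGAA was present in 28 of 38 (73.7%), against 11.2% of 11018 promoters of tested genes. CCAAT was present in 30 of 38 (78.9%), against 36.1%, and both elements in 24 of 38 (63.2%), against 4.8%. At least 2 CCAAT boxes were present in 17 (44.7%), against 13.1%. In 2 of the 38 promoters matches of different motifs overlapped. A match is a run of letters and not a shown binding site.

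**Figure D1:**
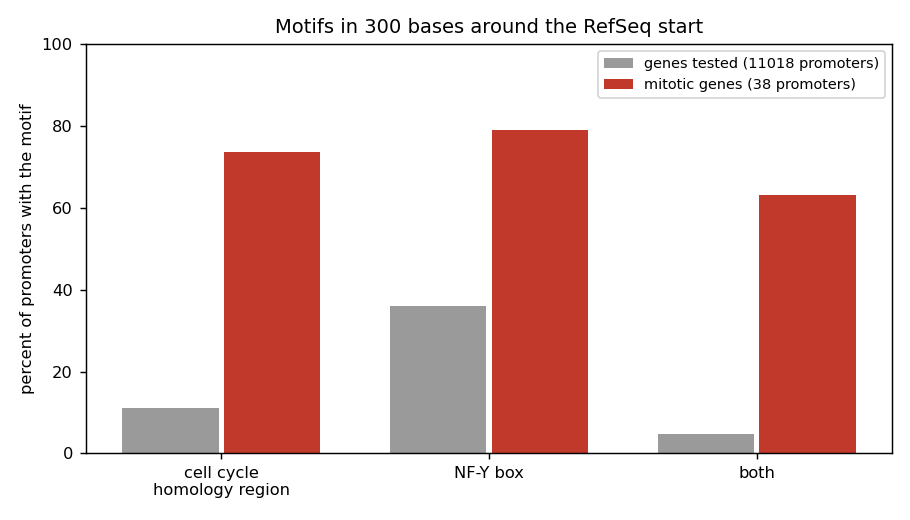
Percent of promoters that hold each motif within 300 bases around the RefSeq start (bars), for the 38 mitotic genes with a promoter entry and for 11018 promoters of tested genes; axis from 0 to 100 percent. The pair of elements was in 63.2% of the mitotic promoters and in 4.8% of the promoters of tested genes.

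CXXC5 itself was 8.40 with shcontrol and 7.95 with shRINF in K562, 8.42 and 7.76 in UT7-5.3, and 8.58 and 7.95 in MV4-11. It was lower in 3 of 3 lines, at 73.2%, 63.3% and 64.6% of control, and the 2 groups of arrays did not overlap. Over the lines it differed by -0.58 ± 0.11 (SD, n = 3), and limma gave an adjusted p of 0.154 over all genes. Arrays of a line correlated at 0.993 to 0.997 and arrays of different lines at 0.930 to 0.959, across features that are not independent replicates. Erythroid markers set K562 and UT7-5.3 apart from MV4-11 (GATA1, the erythroid and megakaryocytic factor, averaged 10.42, 9.82 and 5.78), and the granule protease ELANE averaged 6.06, 6.10 and 11.34. ITGA2B, the platelet integrin, averaged 6.25 in K562 and 8.50 in UT7-5.3, while PPBP, a late platelet gene, was near 3 in all lines, and CD14, a monocyte marker, near 4.5.

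Over the 3 lines together, no mitotic gene passed the test. With the line as a block, 0 of 45 had a limma adjusted p under 0.05, and over all 15330 genes the percentage was also 0. The smallest member adjusted p was 0.763. At an unadjusted p under 0.05, 19 of the 45 were higher with shRINF, against 4.28% of all genes, and 0 were lower, against 2.12%. The members were chosen with earlier results of these data known, so the shares here and below describe the list and test nothing. By sign alone, 23 of 45 (51.1%) were higher in all 3 lines, against 13.7% of all genes and 21.6% of the 2500 genes at like levels (mean log2 8.06 to 9.53, the middle of the mitotic genes). No member was lower in all 3 lines, against 15.2% of all genes. Without MV4-11 the 19 became 4 (4.07% of all genes) and without UT7-5.3 5 (1.72%). With cyclic loess (3.51%), quantile normalization (2.61%) or the level trend removed (3%) they became 9. No line had a second culture, so the p-values rest on 3 within-line differences per gene. Their spread was drawn strongly toward that of all genes (2 residual and 10.7 prior degrees of freedom).

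The lines differed in what the mitotic genes did, and within a line the differences have no test. In MV4-11 all 45 were higher with shRINF, where 49% of all genes and 58.9% of those at like levels were higher, and none was lower, against 47.4% of all genes. Their median difference was 0.24, against 0 over all genes and 0.03 at like levels, and it ran from 0.01 to 0.50. By at least 0.25, 22 of them were higher, against 6.3% of all genes and 7.44% at like levels.

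In UT7-5.3 the median was also 0.24, against -0.06 over all genes and 0.13 at like levels, but the range was far wider, from -0.46 to 0.84. There 36 were higher, against 42.4% of all genes and 66.3% of those at like levels, and 9 were lower, against 56.2% of all genes. By at least 0.25, 22 were higher (background 18.3%, and 31% at like levels) and 3 were lower (16.3%), namely CDC25B, FOXM1 and ESPL1.

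In K562 the median was 0.02, against 0.01 over all genes and 0.03 at like levels. There 28 were higher (background 51.9%, and 62.6% at like levels), 15 lower (43.5%) and 2 equal. CDC25C, at 0.29, was the 1 member higher by at least 0.25 (background 1.74%, and 1.16% at like levels), and 0 were lower by as much (1.38%). Over all genes the SD of the differences was 0.103, 0.259 and 0.179 (K562, UT7-5.3, MV4-11). In bulk RNA, more cells in mitosis and more RNA per cell cannot be told apart.

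**Figure D2:**
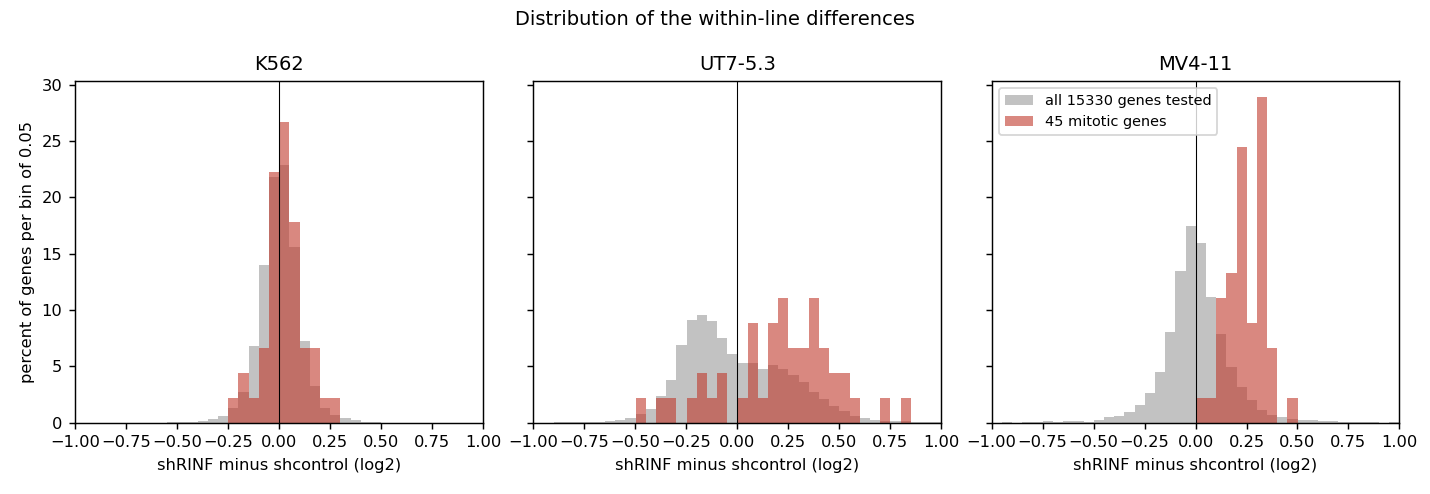
Distribution of the difference between the shRINF and the shcontrol array (log2, horizontal axis) in each line, as the percent of genes per bin of 0.05, for the 45 mitotic genes (red) and all 15330 genes tested (grey). Genes with differences beyond the axis are not drawn. The mitotic genes lie around 0.02 in K562, are spread from -0.46 to 0.84 in UT7-5.3, and lie entirely above 0 in MV4-11.

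Marker genes of the lineages also differed between the 2 arrays of a line. The log2 of the summed megakaryocytic markers (6 of 7 measured) was 9.81 with shcontrol and 9.27 with shRINF in UT7-5.3, and 8.08 and 8.05 in K562. For the granulocytic and monocytic markers (9 of 10 measured) it was 13.26 and 13.53 in MV4-11, and 10.66 and 10.70 in UT7-5.3. The sum hides opposite movements in MV4-11, where the mean level of the same markers was 8.42 and 8.35. There the granule genes were higher with shRINF, MPO at 8.88 and 9.75, ELANE at 10.79 and 11.88, and CTSG at 10.70 and 11.92. LYZ (12.33 and 11.49), CSF1R (6.60 and 5.97), ITGAM (7.36 and 6.66), S100A8 (5.80 and 5.25) and S100A9 (8.72 and 7.66), genes of monocytes and neutrophils, were lower. For the erythroid markers (6 of 10 measured) the log2 sum was 12.50 and 12.72 in UT7-5.3, and 9.09 and 8.86 in MV4-11. In K562 it was 13.25 and 13.31. Marker shifts thus lay in MV4-11, where all 45 mitotic genes were higher, and also in UT7-5.3, where the mitotic median was likewise 0.24. The part of these shifts in the mitotic differences was not tested.

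Among the 10 genes of mitotic entry, the cyclins and CDK1 were higher with shRINF in UT7-5.3 and MV4-11 and nearly level in K562. CDK1, the kinase that starts mitosis, went from 9.15 to 9.17 in K562, from 8.25 to 8.63 in UT7-5.3 and from 8.28 to 8.47 in MV4-11. Its K562 arrays were the highest of the 6 whatever the shRNA, so that the groups overlapped. The mean difference was 0.20 ± 0.18 (SD, n = 3). CCNB1, the cyclin partner of CDK1, went from 9.98 to 9.95, from 9.82 to 10.09 and from 8.61 to 8.92 in the same order of lines. CCNB2, a second B-type cyclin, was higher in all 3, by 0.06, 0.24 and 0.23. CCNA2, cyclin A, was -0.02, 0.26 and 0.22.

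AURKA, the centrosomal Aurora kinase, was 9.15 and 9.24 in K562, 9.21 and 9.58 in UT7-5.3, and 8.20 and 8.52 in MV4-11. It was higher with shRINF in every line, with a mean of 0.26 ± 0.15 (SD, n = 3). CDC25C, a phosphatase that activates CDK1, was likewise higher in every line (0.29, 0.13 and 0.19), and its K562 difference was larger than its other ones.

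Some entry genes did the opposite in UT7-5.3. FOXM1, a transcription factor of G2 and M genes, was 8.40 and 8.38 in K562, 8.70 and 8.24 in UT7-5.3, and 8.08 and 8.29 in MV4-11. Its UT7-5.3 shRINF array stood at 72.7% of the control, while that of MV4-11 stood at 115.7%. CDC25B, a phosphatase that acts early in entry, was 7.74 and 7.42 in UT7-5.3 and 6.95 and 7.14 in MV4-11. PLK1, the Polo-like kinase, was 10.65 and 10.47 in UT7-5.3 and 9.69 and 9.83 in MV4-11. CDCA3, a mitotic entry protein, showed the same opposite signs in these lines (-0.11 and 0.24), and all 4 of these genes were within 0.08 of control in K562.

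Both centrosome kinases were higher in every line. NEK2, which splits the centrosomes, was 7.81 and 7.84 in K562, 6.73 and 7.20 in UT7-5.3, and 6.30 and 6.69 in MV4-11. PLK4, which starts centriole duplication, was 7.96 and 8.01, 7.57 and 7.95, and 7.42 and 7.76. Their means were 0.30 ± 0.23 and 0.26 ± 0.18 (SD, n = 3), and in both genes most of it came from UT7-5.3 and MV4-11.

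The chromosomal passenger complex, which corrects faulty attachments, was split by line. AURKB, its kinase, was 8.38 and 8.20 in UT7-5.3 and 7.61 and 7.83 in MV4-11. INCENP, its scaffold, was 8.43 and 8.20 in UT7-5.3 and 8.03 and 8.23 in MV4-11. The other members, BIRC5 (survivin) and CDCA8 (borealin), differed by 0.05 and 0.07 in UT7-5.3 and by 0.38 and 0.26 in MV4-11. The median of these 4 genes was 0.04 in K562 but -0.07 in UT7-5.3, and 0.24 in MV4-11.

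Of the spindle checkpoint, 4 genes were measured. TTK, the kinase also called MPS1, was 8.24 and 8.35 in K562, 8.74 and 9.18 in UT7-5.3, and 8.01 and 8.33 in MV4-11. It was higher in every line, by 0.29 ± 0.17 (SD, n = 3). BUB1, a checkpoint kinase, differed by 0.00, 0.22 and 0.32, and MAD2L1, which holds back CDC20, by 0.02, 0.18 and 0.16. BUB3, the adaptor of the BUB proteins, differed by 0.10, 0.10 and 0.01, and its MV4-11 difference was the smallest of the 45 in that line.

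At the outer kinetochore CENPE, a kinesin that carries chromosomes to the spindle equator, had the largest mean difference of the 45 genes. It was 8.53 and 8.72 in K562, 7.74 and 8.58 in UT7-5.3, and 8.06 and 8.39 in MV4-11. The shRINF array was higher in every line and stood at 179% of control in UT7-5.3, but the groups overlapped across lines. The mean was 0.45 ± 0.34 (SD, n = 3; adjusted p = 0.763 by limma), and the call depended on the lines used. Without UT7-5.3 the mean was 0.26 (limma adjusted p = 0.836), without K562 it was 0.58 (limma adjusted p = 0.755), and without MV4-11 it was 0.52 (limma adjusted p = 0.0360). The last fit had 1 residual degree of freedom and shared 1 spread over all genes. CENPF, a large kinetochore protein, was 9.44 and 9.43, 9.33 and 9.87, and 9.66 and 9.88. Of the NDC80 complex, which grips microtubules, NDC80 differed by -0.01, 0.32 and 0.29 and NUF2 by 0.07, 0.33 and 0.24. SPC25, of the same complex, was -0.14, 0.07 and 0.10.

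The 7 kinesins were all higher with shRINF in UT7-5.3 and in MV4-11, with medians of 0.35 and 0.34, and had a median of 0.03 in K562. KIF18A, which limits chromosome movement at the equator, was 8.30 and 8.33 in K562, 7.58 and 8.17 in UT7-5.3, and 6.88 and 7.38 in MV4-11. Its MV4-11 difference of 0.50 was the largest of the 45 there, and its mean was 0.37 ± 0.30 (SD, n = 3). KIF14, a kinesin of cytokinesis, was 8.90 and 8.66 in K562, 7.93 and 8.65 in UT7-5.3, and 8.56 and 8.88 in MV4-11. KIF11, the motor that separates the spindle poles, was 9.24 and 9.08, 9.61 and 10.06, and 9.55 and 9.70. In K562 these 2 genes were thus lower with shRINF, and KIF14 had the lowest K562 difference of the 45.

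The remaining kinesins were never lower. KIF2C, which takes microtubules apart at the centromere, was higher by 0.18, 0.18 and 0.34, with a mean of 0.23 ± 0.09 (SD, n = 3). KIF20A, of cytokinesis, was higher by 0.12, 0.22 and 0.35, and KIF4A, of the spindle midzone, by 0.11, 0.19 and 0.25. KIF23, of the central spindle, differed by 0.00, 0.35 and 0.37.

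Among spindle assembly genes PRC1, which bundles midzone microtubules, was 9.32 and 9.49 in K562, 8.80 and 9.05 in UT7-5.3, and 8.51 and 8.80 in MV4-11. Its mean of 0.24 ± 0.06 (SD, n = 3) varied little between lines. ASPM, a spindle pole protein, was 9.46 and 9.41, 8.90 and 9.42, and 8.70 and 9.02. HMMR, a spindle protein and hyaluronan receptor, was -0.05, 0.42 and 0.32, and DLGAP5, which stabilises spindle fibres, 0.08, 0.39 and 0.23. TPX2, the activator of AURKA, was 0.01, 0.17 and 0.23.

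The 4 genes of anaphase and mitotic exit had a median near 0 in K562 (-0.02) and of -0.07 in UT7-5.3, against 0.22 in MV4-11. PTTG1, securin, was the exception, at 6.91 and 7.12 in K562, 6.52 and 6.74 in UT7-5.3, and 5.55 and 5.89 in MV4-11. It was higher in every line, by 0.26 ± 0.07 (SD, n = 3). PTTG1 has near-identical copies elsewhere in the genome, whose share of its signal was not tested. ESPL1, the separase that securin holds back, was 7.57 and 7.22 in UT7-5.3 and 6.70 and 6.90 in MV4-11. CDC20, which activates the anaphase-promoting complex, was -0.01, -0.07 and 0.23, and UBE2C, its ubiquitin-conjugating enzyme, -0.09, -0.07 and 0.14.

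Both cytokinesis genes were level in K562 and higher in the other lines. ECT2, which activates RhoA at the cleavage furrow, was -0.04, 0.46 and 0.29, and ANLN, anillin, 0.04, 0.37 and 0.32. TOP2A, which untangles chromosomes, was 0.02, 0.30 and 0.12. MKI67, the proliferation marker Ki-67, was 10.57 and 10.40 in K562, 10.78 and 10.84 in UT7-5.3, and 10.80 and 10.94 in MV4-11. Its K562 shRINF array was the lowest of the 6.

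**Figure D3:**
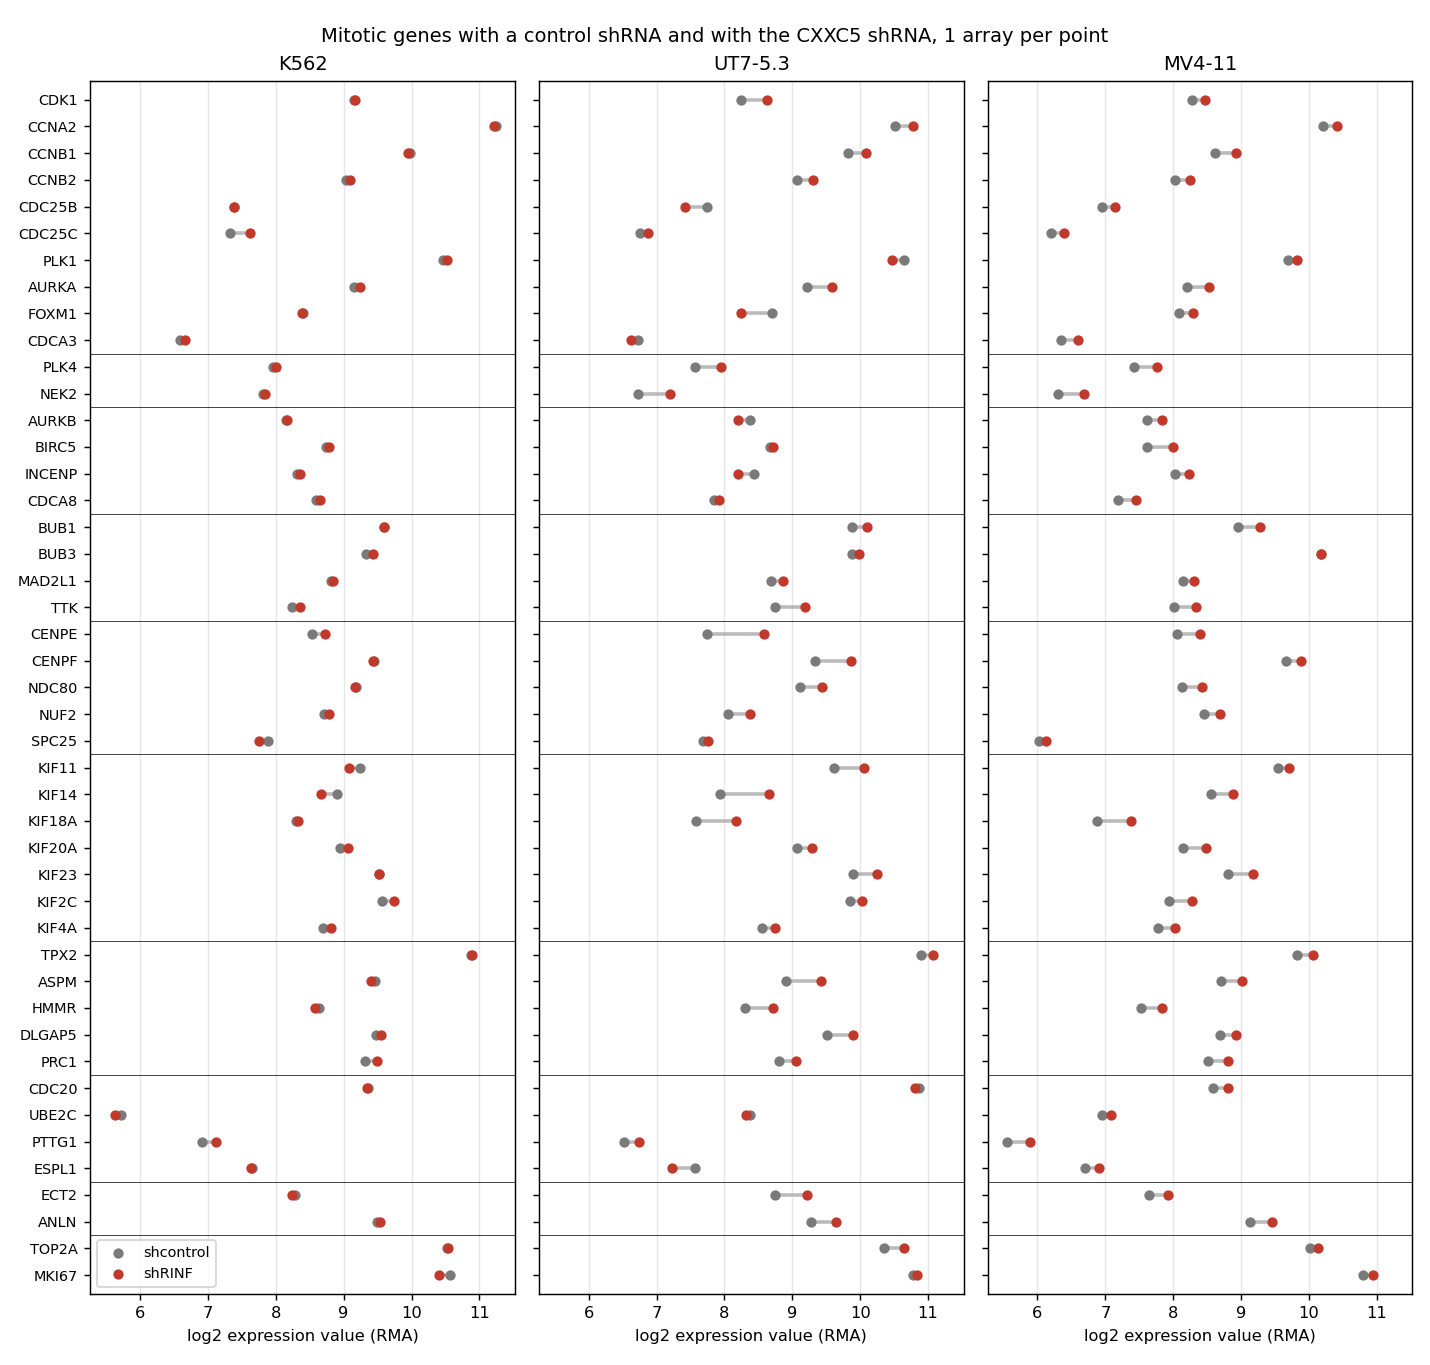
Log2 expression value of each of the 45 mitotic genes on the 6 arrays, 1 panel per line, with the shcontrol and the shRINF array as separate points. The shRINF point lies to the right of the shcontrol point for all 45 genes in MV4-11, for 36 in UT7-5.3 and for 28 in K562.

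The differences in UT7-5.3 and MV4-11 ran partly together over the 45 genes (Spearman rho 0.49, against 0.13 over all genes). K562 ran with neither to that degree (-0.04 with UT7-5.3 and 0.28 with MV4-11). These are correlations across genes, whose values share the 6 arrays.

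In UT7-5.3 the difference also ran with gene length. The rho with the length of the gene in RefSeq was 0.57 over the 45 genes and 0.23 over 15167 genes, against 0.19 and 0.06 in MV4-11 and -0.08 and -0.03 in K562. CENPE (92.5 kb), KIF18A (87.5 kb), KIF14 (69.3 kb) and ECT2 (78.5 kb) were among the long genes, and CDC20 (4.2 kb), UBE2C (4.3 kb) and AURKB (5.8 kb) among the short ones. Single genes departed from this order. The longest, KIF4A (130.8 kb), differed by 0.19, TPX2 (62.5 kb) by 0.17 and CDC25C (53.1 kb) by 0.13, while the short genes CCNA2 (7.4 kb), PTTG1 (6.9 kb) and KIF20A (8.6 kb) differed by 0.26, 0.22 and 0.22. With all genes cut into 3 length classes of equal size (bounds at 10290 and 39260 bases), the UT7-5.3 medians were -0.07 for 7 short, 0.21 for 24 middle and 0.42 for 14 long mitotic genes. Over all genes the same classes had medians of -0.11, -0.08 and 0.07. In MV4-11 the mitotic medians were 0.23, 0.24 and 0.29.

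Level ran with the UT7-5.3 difference as well. All genes with a mean log2 value of 5 to 6 had a median of -0.15, and those of 8 to 9 a median of 0.12. After the trend with level was removed, the UT7-5.3 median of the mitotic genes was 0.14 and that of MV4-11 0.21. With the trend with length removed too, they were 0.17 and 0.22.

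**Figure D4:**
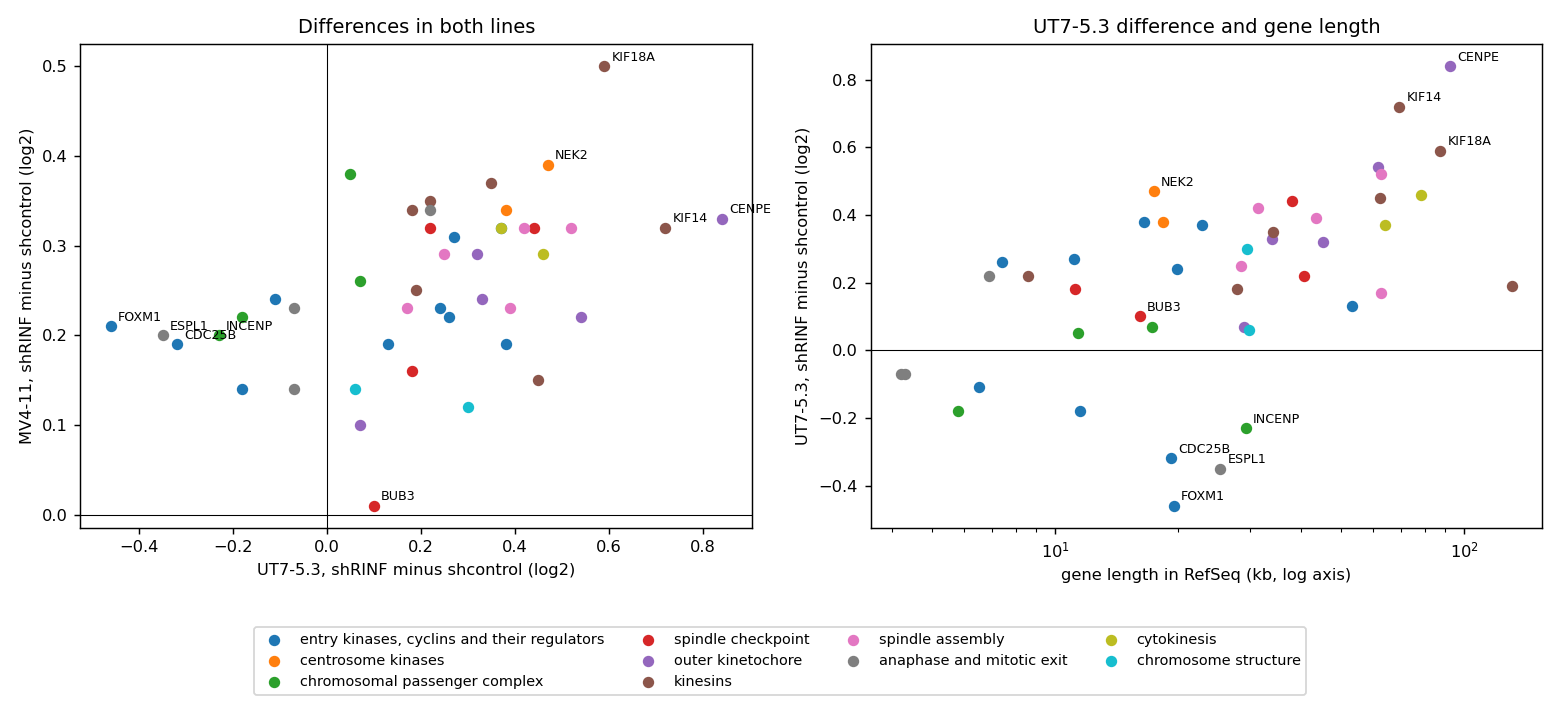
Left, difference between shRINF and shcontrol (log2) in MV4-11 against that in UT7-5.3 for each mitotic gene, coloured by role. Right, the UT7-5.3 difference against gene length in kb on a log axis. CENPE, KIF14 and KIF18A lie farthest right in the left panel and highest in the right one, and FOXM1, ESPL1 and CDC25B lie below 0 in UT7-5.3 and above 0 in MV4-11.

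The differences were also set beside the promoter motifs, with no test. The 28 genes with TTTGAA or TTCGAA had medians of 0.02, 0.31 and 0.24 (K562, UT7-5.3, MV4-11), and the 10 without had 0.08, 0.22 and 0.32. The 30 genes with CCAAT had 0.02, 0.25 and 0.24, and the 8 without had 0.06, 0.33 and 0.31. For the 24 genes with both elements the medians were 0.01, 0.25 and 0.23, and for the 4 with neither 0.19, 0.16 and 0.26. The groups without a motif are small. CENPE, with neither element in the printed stretch, had the largest mean difference, and PLK1 and CCNB2, with both, were -0.18 and 0.24 in UT7-5.3.

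Between the lines the same genes stood at different levels, most of them lowest in MV4-11. The lines were compared in the fit of line and shRNA, with 2 arrays per line, its shcontrol and shRINF arrays. These p-values measure the spread between them once the mean shRNA difference was taken out, drawn toward that of all genes. They do not measure variation between cultures of a line. Of the 45, 33 were lower in MV4-11 than in K562 at a limma adjusted p under 0.05 (background 27.5%) and 5 were higher (23%). Against UT7-5.3, 31 were lower in MV4-11 (25.8%) and 1, NUF2, was higher (22.6%). The NUF2 call was lost in 5 of 16 alternatives. UT7-5.3 and K562 were more evenly placed, with 10 mitotic genes higher (20.4%) and 11 lower (21.2%) in UT7-5.3. In either direction, 38 differed between MV4-11 and K562 (84.4%, background 50.5%), 32 between MV4-11 and UT7-5.3 (71.1%, background 48.4%) and 21 between UT7-5.3 and K562 (46.7%, background 41.6%). These backgrounds are those of all genes. Of the 2500 genes at like levels, 988 were lower and 602 higher in MV4-11 than in K562. Against UT7-5.3, 868 of them were lower and 644 higher in MV4-11. In UT7-5.3, 742 were lower and 563 higher than in K562. Each of these shares was larger than over all genes. The mitotic share between UT7-5.3 and K562 lay near its background of all genes, and that count was less firm. It fell when a K562 or UT7-5.3 array was left out, which leaves 1 array in that line, and the count over all genes fell too.

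Differences of 2-fold or more past the same threshold were fewer. In MV4-11, 8 mitotic genes were lower than in K562 by as much (background 7.05%) and 1, UBE2C, was higher (8.06%). Against UT7-5.3, 10 were lower in MV4-11 (7.07%) and 0 higher (6.51%). In UT7-5.3, 2 genes, UBE2C and CDC20, were higher than in K562 (5.84%) and 0 were lower (4%). By the mean of a line's arrays, MV4-11 was lowest for 37 of the 45, where it was lowest for 42.2% of all genes. K562 was highest for 23 (34.3% of all genes), UT7-5.3 for 19 (33.5%) and MV4-11 for 3 (32.2%).

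UBE2C had the widest range, at 5.72 and 5.63 in K562, 8.38 and 8.31 in UT7-5.3, and 6.95 and 7.09 in MV4-11. UT7-5.3 was 6.36-fold above K562 (difference 2.67 ± 0.11, SE, limma adjusted p = 3.86e-10). CDC20 was 9.36 and 9.35 in K562, 10.87 and 10.80 in UT7-5.3, and 8.58 and 8.81 in MV4-11, with UT7-5.3 highest and MV4-11 lowest. Its MV4-11 value was 4.41-fold below that of UT7-5.3 (difference -2.14 ± 0.11, SE, limma adjusted p = 3.14e-09). Both of these genes serve the anaphase-promoting complex, and all pairs of lines differed past the threshold in both.

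SPC25 was 7.89 and 7.75 in K562, 7.68 and 7.75 in UT7-5.3, and 6.03 and 6.13 in MV4-11, where it was 3.34-fold below K562 (limma adjusted p = 1.64e-08). KIF2C was 9.56 and 9.74, 9.85 and 10.03, and 7.94 and 8.28, so that MV4-11 was 3.55-fold below UT7-5.3 (limma adjusted p = 8.80e-09). In both genes MV4-11 stood apart. Between K562 and UT7-5.3, SPC25 missed the threshold (limma adjusted p = 0.514), and KIF2C was higher in UT7-5.3 by 0.29 (limma adjusted p = 0.0437), a call lost in 11 of 16 alternatives. CCNB1 in MV4-11 was 2.30-fold below K562 and 2.28-fold below UT7-5.3, and PTTG1 2.45-fold and 1.88-fold. CDC25C, CDCA8 and NEK2 fell in the order K562, UT7-5.3, MV4-11, and each step passed the threshold. The same held for CCNA2, KIF18A, PRC1 and PTTG1. Apart from CDC25C, each of these genes lost a step in some alternatives.

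BUB3 ran the other way, at 9.33 and 9.43 in K562, 9.88 and 9.98 in UT7-5.3, and 10.17 and 10.18 in MV4-11. It was 1.73-fold above K562 in MV4-11 (limma adjusted p = 2.38e-05), and its difference between MV4-11 and UT7-5.3 missed the threshold (limma adjusted p = 0.0706). CENPF and MKI67 were the other genes whose highest mean was in MV4-11. For CDK1, K562 was above both other lines, and UT7-5.3 and MV4-11 lay 0.07 apart (limma adjusted p = 0.691). FOXM1, INCENP, CDCA3 and ANLN passed the threshold in none of the 3 pairs.

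**Figure D5:**
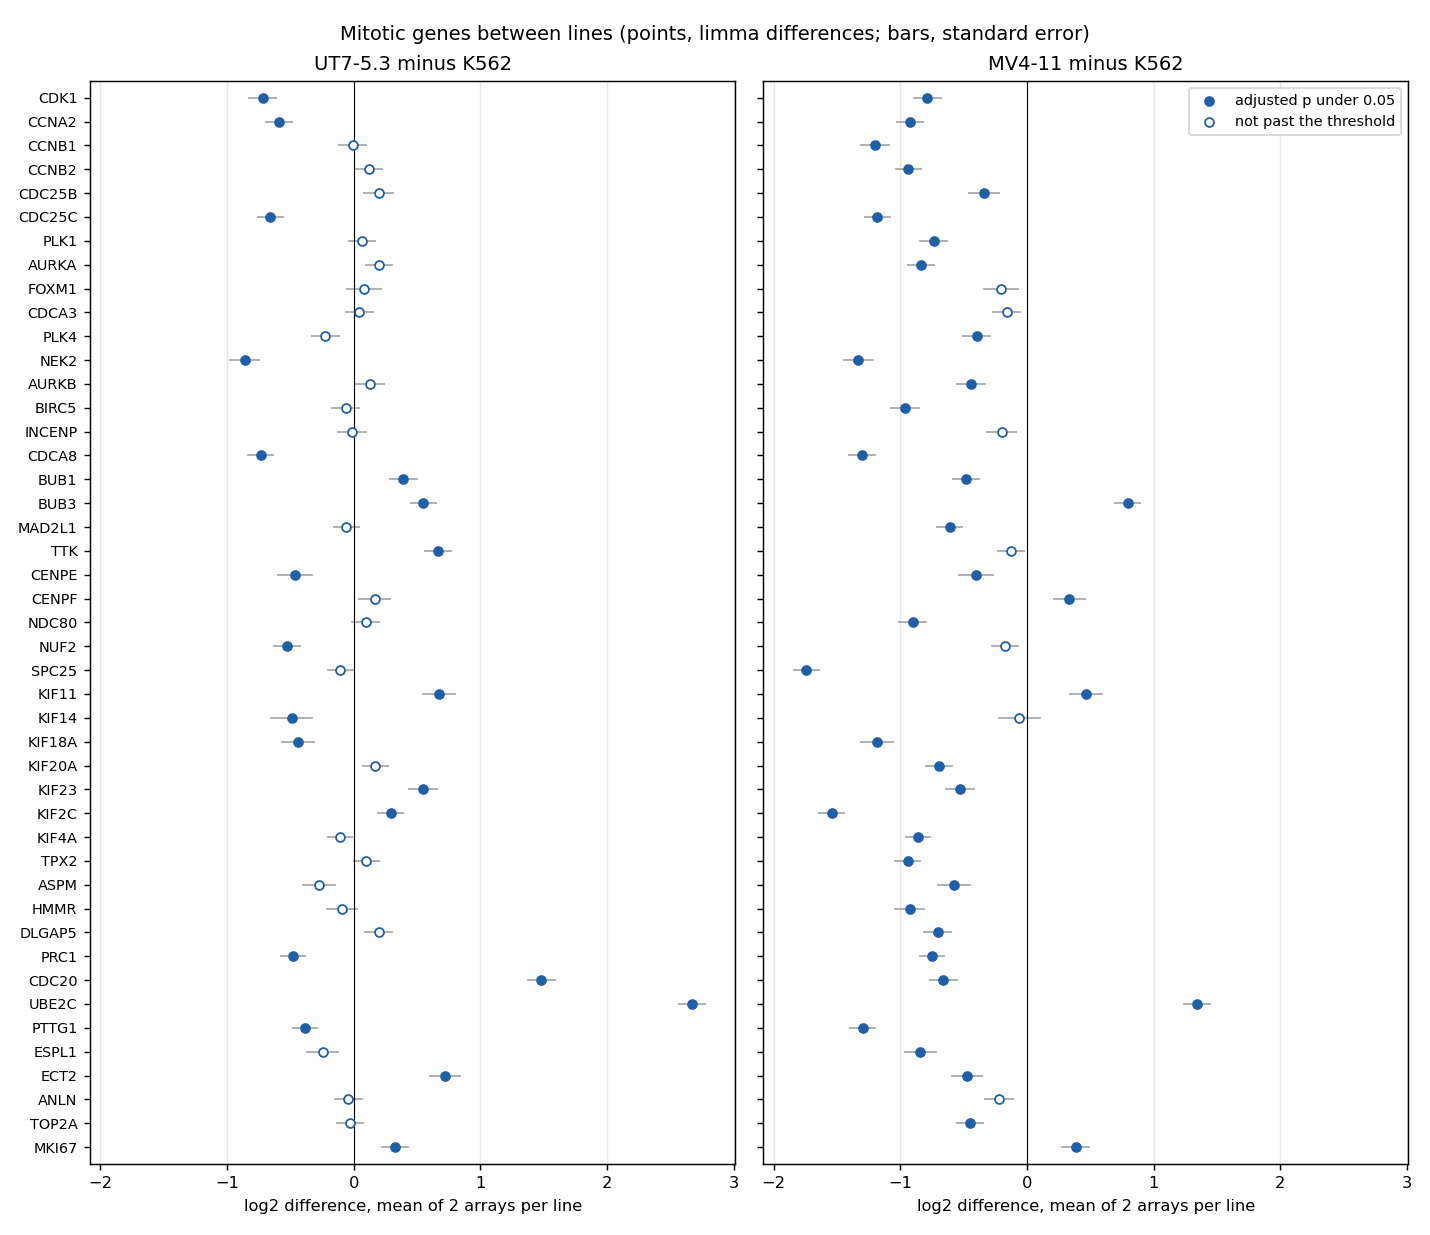
Difference from K562 (log2, from the fit of line and shRNA, bars the standard error) of UT7-5.3 on the left and MV4-11 on the right, for the 45 mitotic genes, with filled points past an adjusted p of 0.05. UBE2C and CDC20 lie far above 0 for UT7-5.3 against K562, and 33 genes are called lower in MV4-11 than in K562.

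Other genes of the cell cycle were read from further lists, also chosen with earlier results of these data known. Beside their counts stand the shares of all genes, which were 13.7% higher and 15.2% lower in all 3 lines. At the mitotic genes' levels given above, 21.6% were higher, a share not matched to the levels of these further lists. Of 71 other mitotic genes, 0 passed the adjusted threshold, 32 were higher in all 3 lines and 1 was lower, with medians of 0.03, 0.24 and 0.20 (K562, UT7-5.3, MV4-11). In the last line, 67 of these were higher and 4 lower, against 49% and 47.4% of all genes. CENPQ, an inner kinetochore protein, was higher by 0.21, 0.85 and 0.19, and PBK, a mitotic kinase, by 0.04, 0.43 and 0.58. OIP5, which helps load centromeric histone, was higher by 0.06, 0.35 and 0.56, and BORA, an activator of AURKA, by 0.02, 0.70 and 0.23.

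Of 39 replication licensing and G1/S genes, 17 were higher in all 3 lines (13.7% of all genes) and 0 lower (15.2%), with medians of 0.06, 0.11 and 0.17. GINS2, of the replicative helicase, was higher by 0.16, 0.41 and 0.25. The 19 cohesin and condensin genes had medians of -0.01, 0.36 and 0.12. Of these, 4 were higher in all 3 lines, a share close to the 21.6% of genes at the mitotic genes' levels. SMC3, a cohesin ring subunit, was higher by 0.02, 0.51 and 0.12. The 16 genes of the anaphase-promoting complex and its partners had medians of 0.04, 0.21 and 0.07.

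Among 22 DREAM, MuvB and E2F regulators, 7 were higher in all 3 lines (13.7% of all genes, 21.6% at the mitotic genes' levels) and 1 lower (15.2%). Their medians were 0.02, 0.14 and 0.09 (K562, UT7-5.3, MV4-11). E2F5 had the largest mean difference of this list (0.01, 0.28 and 0.64), from a low 4.94 with shcontrol in MV4-11. E2F6 differed by 0.10, 0.31 and 0.25. NFYB, a subunit of the factor that binds the CCAAT box, was 7.51 and 7.60 in K562, 7.24 and 7.61 in UT7-5.3, and 8.11 and 8.51 in MV4-11. LIN9, a MuvB subunit, differed by 0.02, 0.36 and 0.26. Of the 17 p53 targets, 15 were lower and 2 higher in MV4-11 (47.4% and 49% of all genes), with a median of -0.14, against 0.05 in K562 and -0.01 in UT7-5.3. ZMAT3, a p53-induced RNA-binding protein, was lower by sign in all lines (-0.24, -0.06 and -0.38), while MDM2, the p53 ubiquitin ligase, was 0.19, 0.51 and -0.10. No gene of any of these lists had a limma adjusted p under 0.05 over the 3 lines. Without MV4-11, CENPQ had one of 0.0286, and without UT7-5.3 its mean dropped from 0.42 to 0.20 (limma adjusted p = 0.836).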

How the data were processed

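RNA of 3 cell lines was measured on 6 whole-transcript arrays. The authors deposited 1 log2 value per feature and array; the submitters' processing notes name RMA and Affymetrix Expression Console, with no version. The genome build is not given in the sources used here. The log base was taken as 2 from the method and the range, 1.63 to 13.89. RMA equalises the arrays, so a shift shared by most transcripts is removed. Arrays give no counts, and their number limits the precision.

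The platform table gives a single symbol to 23781 of 67528 features, several to 1543 and lists none for 42204. A gene with several features was read from the one with the highest mean, and genes at log2 5 or more on at least 2 arrays were kept. The labels give no replicate numbers, and arrays were paired by cell line. Tests used limma 3.58.1 (R 4.3.3; lmFit, eBayes, line as block) with Benjamini-Hochberg adjustment over 15330 genes and a threshold of 0.05, with 2 residual and 10.7 prior degrees of freedom. Line contrasts came from the same additive fit. Within a line, 0.25 or more counted as past the fold. The procedure was tested on simulated data with differences larger than the mean differences of the mitotic genes. Its power at their size was not tested.

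Named genes were all members, CXXC5 and up to 4 genes per further list with the largest mean difference. The members and lists were chosen with earlier results of these data known. Promoters are from RefSeq (GRCh38.p14). Alternatives covered the filter, feature, normalization, variance model, block, threshold, fold and left-out arrays.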

Additional observations from a re-analysis of the deposited data

Results flagged for a closer look

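For 11 mitotic genes the 2 arrays of a line differed in opposite directions in a pair of lines, by at least 0.1 each way. Each line gave 1 array per shRNA, so these differences between lines were not tested. The quantity given is the within-line difference (shRINF minus shcontrol, log2) of the first line minus that of the second.

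Between MV4-11 and UT7-5.3, where the gene was higher with shRINF in the first and lower in the second, it was 0.67 for FOXM1, 0.55 for ESPL1 and 0.51 for CDC25B. It was 0.43 for INCENP, 0.40 for AURKB, 0.35 for CDCA3 and 0.32 for PLK1. Between UT7-5.3 and K562 it was 0.96 for KIF14 and 0.61 for KIF11, both higher with shRINF in UT7-5.3 and lower in K562. Between MV4-11 and K562 it was 0.31 for MKI67 and 0.24 for SPC25.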

How the results depend on the processing

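The count of genes past the threshold over the 3 lines, 0, became 3 with a trended, robust prior variance and 1 at an adjusted p under 0.1. Leaving out a line gave 0 to 52, and mitotic genes called went from 0 to at most 1 (CENPE, without MV4-11), in a fit with 1 residual degree of freedom. CXXC5 passed with the trended prior (adjusted p = 0.0322) and without MV4-11 (adjusted p = 0.0208). Without the line as a block (no replicate block, so no pairing), 0 genes and 0 mitotic genes were called. At an unadjusted p under 0.05, the 19 higher mitotic genes (4.28% of all genes) became 9 under cyclic loess (3.51%) or quantile normalization (2.61%). Leaving out a line gave 4 without MV4-11 (4.07%), 5 without UT7-5.3 (1.72%) and 16 without K562 (3.87%). There were 9 with the level trend removed (3%) and 10 with the length trend removed too (2.92%). These trends were added after seeing the data.

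At a minimum of 0.5, K562 had 0 mitotic genes higher, UT7-5.3 5 higher and 0 lower, and MV4-11 1 higher. The share of all genes at this minimum was not computed, so these counts have no background. In K562 1 gene was lower by 0.25 under median centring, cyclic loess and both trends. In UT7-5.3 the 3 lower became 5 under cyclic loess, 6 with the level trend removed and 5 with both removed, when the 22 higher became 14. Shares of all genes at 0.25 were not computed under these alternatives. The 45 higher in MV4-11 by any amount became 44 under cyclic loess, quantile normalization and both trends. The 36 in UT7-5.3 ranged from 32 to 36, and the 28 in K562 from 19 to 28. The share of all genes higher ranged from 47.3% to 49.6% in MV4-11 over the settings. It ranged from 40.1% to 51.8% in UT7-5.3 and from 42.3% to 53.3% in K562.

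A 2-fold minimum cut the line contrasts over all genes from 6371 to 1508 (UT7-5.3 against K562), 7736 to 2317 (MV4-11 against K562) and 7413 to 2082 (MV4-11 against UT7-5.3), and over mitotic genes from 21 to 2, 38 to 9 and 32 to 10. Leaving out an array gave 3700 to 6240 genes and 9 to 20 mitotic genes for UT7-5.3 against K562, with the fewest genes without a K562 array and the fewest mitotic genes without UT7-5.3 shcontrol. Low signals have no detection calls, but no mitotic gene was below log2 5.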
